A study of Danio rerio with 6 samples.

Results

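The zebrafish genes tcf21, wt1b and wt1a encode transcription factors that mark the epicardium, the outer cell layer of the heart. The 3 genes were taken by symbol from the 31701 genes of the count table. Each symbol matched a single Ensembl gene (tcf21 ENSDARG00000036869, wt1b ENSDARG00000007990, wt1a ENSDARG00000031420), and all 3 passed the low-count filter that left 15686 genes for testing.

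In the adult zebrafish heart the epicardium lies quiet until injury. After amputation it is activated over the whole organ, takes up embryonic genes, covers the wound, lays down matrix and releases signals to the myocardium, and some of its cells become perivascular cells and fibroblasts. Tcf21 is a basic helix-loop-helix (bHLH) factor, a class that binds DNA as a dimer with a widely expressed E protein partner, and tcf21 reporters label most of the zebrafish epicardium at rest as well as after injury. Wt1 is a zinc finger factor related to the Egr family and is needed in mice for the formation of epicardium-derived cells. Zebrafish carry a pair of wt1 paralogs, and reporters for wt1b label epicardial cells mainly after injury. Both paralogs are also known from the kidney podocytes, and wt1b has been described in macrophages of injured zebrafish tissue.

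The data came from adult fish of the AB strain, with 3 libraries for tbx20-overexpressing and 3 for control hearts. The tbx20-overexpressing fish (TRE3G:tbx20CMOE) carried a responder, TRE3G:tbx20-E2A-mCherry, and a driver, cmlc2:TetON-3G, in which the cmlc2 promoter makes the doxycycline (DOX)-dependent activator in cardiomyocytes. Control fish carried the responder alone. Fish of both groups received DOX every day, starting the day before the ventricular apex was cut off, and the apical ventricle was taken at 7 days post amputation (dpa). The presence of the driver and the induction of tbx20 therefore cannot be told apart. Each library was a pool of 6 hearts in replicate 1 or 8 hearts in replicates 2 and 3, so that the error between libraries is one between pools. The tissue was whole apex and not sorted epicardium, and in such bulk samples a larger number of epicardial cells and more RNA per cell cannot be told apart.

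Total counts were 12993988 to 14002211 in the tbx20-overexpressing and 13218054 to 17754483 in the control libraries. The targeted gene, tbx20 (ENSDARG00000005150), encodes a T-box factor of cardiomyocytes and other heart cells. It was measured at 63.9, 9.64 and 22.8 FPKM in tbx20-overexpressing replicates 1, 2 and 3, against 17.9, 3.02 and 9.61 FPKM in control replicates 1, 2 and 3. FPKM, used as deposited, are counts scaled by exonic length and by the total count of the library. The groups overlapped, but tbx20 was higher in the tbx20-overexpressing library of each of the 3 same-numbered pairs. The log2 fold change was 1.43 ± 0.75 (SE; edgeR quasi-likelihood test, adjusted p = 0.649). With the replicate number as a block it was 1.24 ± 0.19 (edgeR, adjusted p = 0.0479). How far reads of the transgene enter this gene's count was not tested.

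The first question was how strongly each of the epicardial factors was expressed in the regenerating apex. Tcf21 stood at 47.0, 48.7 and 50.3 FPKM in tbx20-overexpressing replicates 1, 2 and 3, against 25.9, 23.8 and 31.9 FPKM in control replicates 1, 2 and 3. The tbx20-overexpressing libraries lay close together, and the lowest of them was above the highest control library, as for 19.7% of all genes tested in FPKM. The means were 48.7 ± 1.69 FPKM in tbx20-overexpressing and 27.2 ± 4.19 FPKM in control hearts (SD, n = 3 each). These levels placed tcf21 above 92.6% to 92.8% of the tested genes in the tbx20-overexpressing libraries, and above 88.3% to 89.8% of them in the control libraries.

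The injury-associated paralog wt1b was measured at 33.5, 26.3 and 44.9 FPKM in tbx20-overexpressing replicates 1, 2 and 3, against 17.3, 14.7 and 19.4 FPKM in control replicates 1, 2 and 3. The groups were again separate, as for 19.7% of all genes tested in FPKM, with replicate 3 highest and replicate 2 lowest in either group. On average wt1b had 34.9 ± 9.38 FPKM in tbx20-overexpressing and 17.2 ± 2.35 FPKM in control hearts (SD, n = 3 each). In FPKM the coefficient of variation was 26.9% in the tbx20-overexpressing and 13.7% in the control group, while for tcf21 it was 3.46% in the tbx20-overexpressing and 15.4% in the control group.

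The other paralog, wt1a, was far lower, at 5.91, 7.09 and 13.4 FPKM in tbx20-overexpressing replicates 1, 2 and 3, against 6.66, 3.94 and 7.12 FPKM in control replicates 1, 2 and 3. Here the groups overlapped, and a single library, tbx20-overexpressing replicate 3, stood above the other 5. The mean was 8.78 ± 3.999 FPKM in tbx20-overexpressing and 5.91 ± 1.72 FPKM in control hearts (SD, n = 3 each). Counts behind the values of the 3 genes ran between 131 (wt1a, control replicate 2) and 1128 (wt1b, tbx20-overexpressing replicate 3), which sets a counting error of 8.74% to 2.98%. The spread of wt1a and wt1b among tbx20-overexpressing pools was larger than that.

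Per exonic length, the order tcf21 above wt1b above wt1a was kept in all 6 libraries, and the FPKM ranges of neighbours in this order overlapped in neither group. The FPKM of tcf21 was 1.12 to 1.85 times that of wt1b in the tbx20-overexpressing and 1.49 to 1.64 times in the control libraries. The FPKM of wt1b was 3.36 to 5.66 times that of wt1a in the tbx20-overexpressing and 2.60 to 3.74 times in the control libraries. Zebrafish wt1 expression in the apex was thus mostly that of wt1b in either group.

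**Figure D1:**
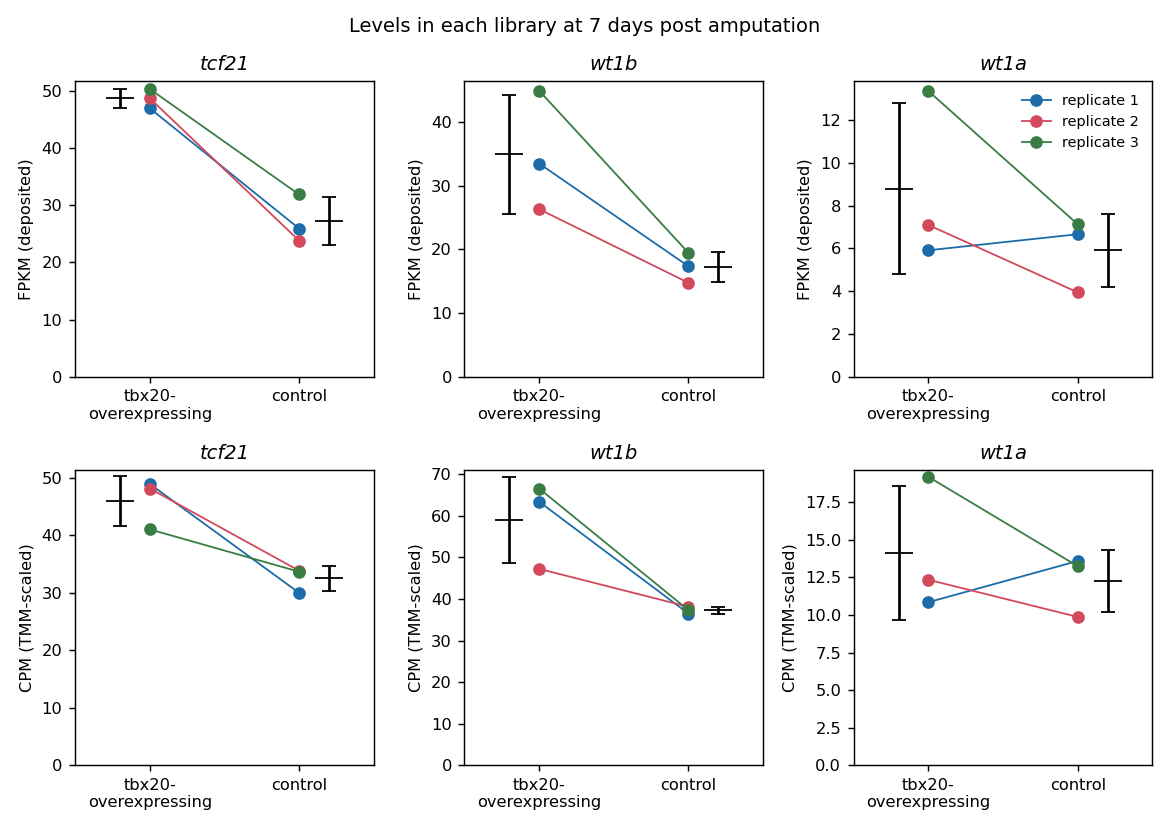
Levels of tcf21, wt1b and wt1a in each library, as deposited FPKM (top row) and as CPM scaled by TMM factors (bottom row). Points are libraries, lines join libraries of the same replicate number, and the black bars beside them are the mean ± SD of 3 libraries. The tbx20-overexpressing libraries lie above all control libraries for tcf21 (47.0 to 50.3 against 23.8 to 31.9 FPKM) and wt1b (26.3 to 44.9 against 14.7 to 19.4 FPKM), but not for wt1a. Over all genes tested, such separation held for 19.7% in FPKM and 6.45% in CPM.

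The second question was whether the genes differed between the groups once the libraries were put on a common scale. FPKM divide by the total count, and the TMM factors, which rescale libraries by the bulk of the genes, were 1.02 to 1.31 in the tbx20-overexpressing and 0.748 to 1.01 in the control libraries. The 13 genes encoded in the mitochondrial genome took 11.1% to 15.0% of counts in the tbx20-overexpressing and 16.3% to 20.9% in the control libraries. How far this share accounts for the difference between the scales was not tested. On the TMM scale, in CPM (counts scaled to a common library size), the differences were smaller than in FPKM. Tcf21 had 48.9, 48.1 and 41.0 CPM in tbx20-overexpressing replicates 1, 2 and 3, against 29.98, 33.8 and 33.7 CPM in control replicates 1, 2 and 3. Every tbx20-overexpressing library was still above every control library, as for 6.45% of all genes tested in CPM. The coefficient of variation of tcf21 in CPM was 9.45% in the tbx20-overexpressing and 6.69% in the control group. Its smaller spread among tbx20-overexpressing libraries was therefore found in FPKM only.

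The log2 fold change of tcf21 was 0.502 ± 0.175 (SE; edgeR, unadjusted p = 0.0199, adjusted p = 0.415), or 1.42-fold with a range of 1.25 to 1.60 at 1 SE. A gene was called here at an unadjusted p under 0.05 together with a log2 fold change beyond 0.5 in size. This follows the cut-offs named in the Results of the study, whose p is read here as unadjusted, while its Methods name an adjusted p, by which tcf21 would not be called. Tcf21 passed both thresholds, the fold change by a margin of the last digits. With the replicate number as a block the value was 0.499 ± 0.156 (edgeR, unadjusted p = 0.0132, adjusted p = 0.157), just under 0.5, and the call was lost although p was smaller. Without control replicate 1, tbx20-overexpressing replicate 1 or tbx20-overexpressing replicate 2 the log2 fold change was 0.45, 0.45 and 0.47, and the call was lost too. In these fits the p threshold was also missed (edgeR, unadjusted p = 0.0597, 0.0548 and 0.0610 in the same order). The exact permutation test of 3 against 3 gave p = 0.1 (two-sided), the smallest it allows.

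For wt1b the CPM were 63.4, 47.3 and 66.6 in tbx20-overexpressing replicates 1, 2 and 3, against 36.5, 38.1 and 37.3 in control replicates 1, 2 and 3. The control libraries were nearly alike, with a coefficient of variation of 2.19%, which is below their counting error of 3.92% to 4.75%. Of the tbx20-overexpressing libraries, replicate 2 was the closest to them. The log2 fold change was 0.66 ± 0.19 (SE; edgeR, unadjusted p = 0.0078, adjusted p = 0.340), or 1.58-fold with a range of 1.39 to 1.81 at 1 SE. The gene passed both thresholds, and did so in each of the 6 fits that left out a library, with log2 fold changes of 0.57 to 0.80. The exact permutation test again gave its smallest value, p = 0.1 (two-sided).

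For wt1a the CPM were 10.8, 12.3 and 19.2 in tbx20-overexpressing replicates 1, 2 and 3, against 13.6, 9.87 and 13.2 in control replicates 1, 2 and 3. It was higher in the tbx20-overexpressing library in 2 of 3 pairs and lower in that of replicate 1. The log2 fold change was 0.21 ± 0.28 (SE; edgeR, adjusted p = 0.917), with an exact permutation p of 0.7 (two-sided), so the difference was smaller than its error. Without tbx20-overexpressing replicate 3 the value was -0.08.

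Of the 3 genes, then, 2 passed both thresholds, both of them higher in tbx20-overexpressing hearts. Over all genes tested, 8.83% passed these thresholds, and 3.27% passed them as higher in tbx20-overexpressing hearts. In the fit with the replicate block 14.1% of genes passed, 6.05% as higher in tbx20-overexpressing hearts, and of the 3 genes 1, wt1b, was among them (log2 fold change 0.65 ± 0.17, SE; edgeR, adjusted p = 0.103). A higher log2 fold change than that of wt1b was seen in 7.90% of the tested genes, and 12.6% of them were above tcf21 and 31.4% above wt1a. No overlap between groups, with every tbx20-overexpressing library above every control library, was found for tcf21 and wt1b in CPM, where it held for 6.45% of genes, and also in FPKM, where it held for 19.7% of genes.

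None of the 3 genes reached an adjusted p under 0.05 in edgeR, and 0% of all genes did, although unadjusted p-values were under 0.05 for 1448 genes. In the blocked fit 0.536% of genes reached it, again without any of the 3. DESeq2 gave an adjusted p under 0.05 for 204 genes, none of the 3 included. Only the fit that combined total-count scaling with the replicate block, chosen after seeing the data, brought tcf21 (adjusted p = 0.0471) and wt1b (adjusted p = 0.0426) under 0.05, among 2.56% of genes. In that fit the log2 fold changes were 0.85 ± 0.17 for tcf21, 0.999 ± 0.163 for wt1b and 0.54 for wt1a (SE; edgeR, adjusted p = 0.202 for wt1a).

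The size of the differences moved with the scaling of the libraries. With total counts in place of TMM factors the log2 fold change was 0.84 for tcf21, 1.02 for wt1b and 0.57 for wt1a, but the median of all genes was at 0.38 as well, instead of 0.04. Of all genes called, 87.8% were then higher in tbx20-overexpressing hearts, in place of 37.0%. Measured from the median gene, the values moved little. A change of scaling shifts all genes by nearly the same amount, so this would hold for any gene. Tcf21 was 0.46 above it under total counts and 0.47 above it under TMM factors, wt1b was 0.64 above it under total counts and 0.63 under TMM factors, and wt1a was 0.19 above it under total counts and 0.17 under TMM factors. Over 16 alternative fits, the log2 fold change was positive in all 16 for tcf21 and wt1b and in 15 for wt1a, and both thresholds were passed in 10 by tcf21, in 16 by wt1b and in 0 by wt1a. The passes of tcf21 and wt1b include the total-count fits, with and without the replicate block, and the limma fits on FPKM. In those fits the median gene was itself at 0.27 to 0.38.

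**Figure D2:**
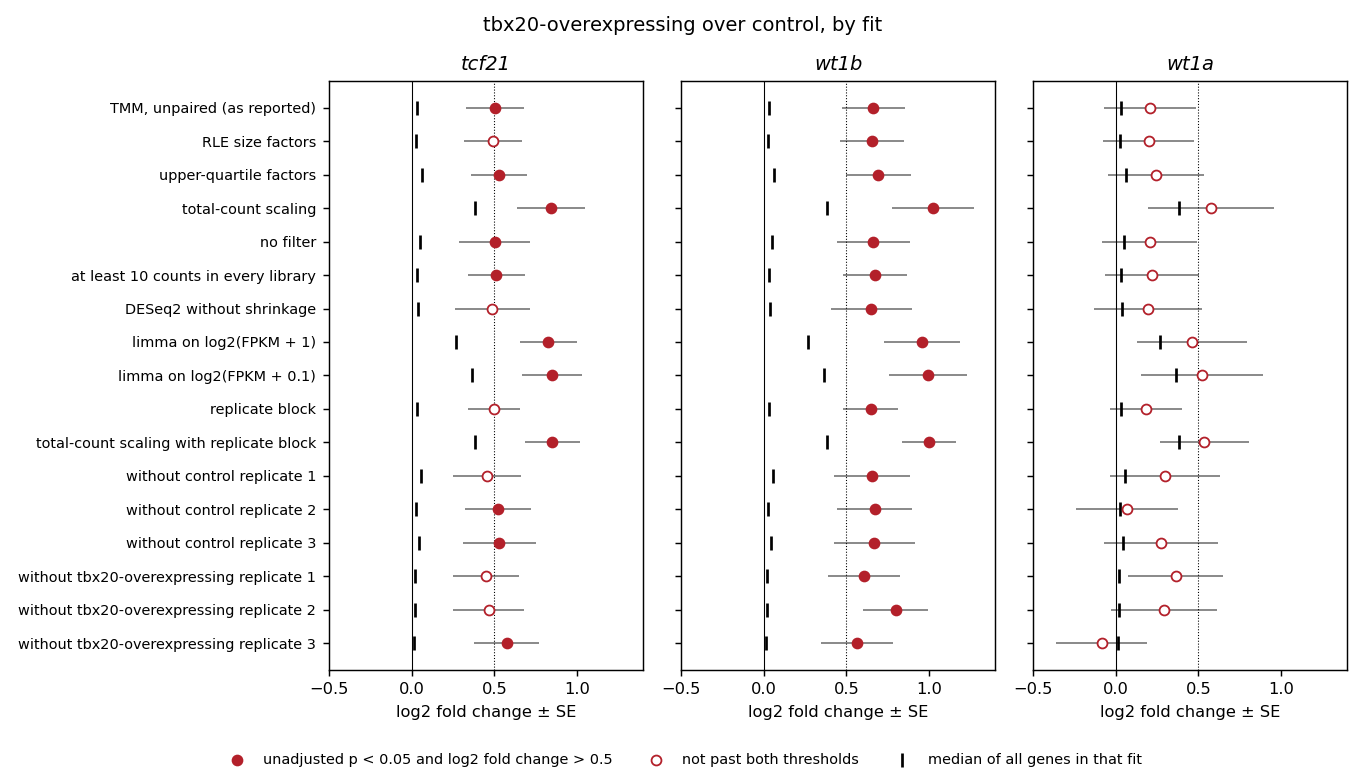
Log2 fold change (tbx20-overexpressing over control) ± SE of tcf21, wt1b and wt1a in the reported fit and 16 alternatives. Filled points passed both thresholds (dotted line at 0.5), and black ticks give the median of all genes; wt1b is filled in all fits, tcf21 in 10 of the 16 alternatives and wt1a in none, and the values and the median shift together under total-count scaling and in the FPKM fits.

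The third question was whether the genes kept their proportions to each other. A ratio within a library does not depend on how libraries are scaled. Per exonic length, wt1b amounted to 0.713, 0.540 and 0.892 of tcf21 in tbx20-overexpressing replicates 1, 2 and 3, against 0.669, 0.620 and 0.610 in control replicates 1, 2 and 3. The tbx20-overexpressing values spread to both sides of the control values. The difference of the mean log2 ratio was 0.15 (exact permutation p = 0.6, two-sided), and it was -0.03 without tbx20-overexpressing replicate 3 and 0.33 without tbx20-overexpressing replicate 2.

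Set against each other, wt1b was 5.65, 3.70 and 3.36 times wt1a in tbx20-overexpressing replicates 1, 2 and 3, and 2.60, 3.73 and 2.73 times in control replicates 1, 2 and 3. Only replicate 1 of the tbx20-overexpressing group stood outside the other libraries. The mean log2 ratio was 2.05 ± 0.40 in tbx20-overexpressing and 1.58 ± 0.28 in control hearts (SD, n = 3 each), a difference of 0.47 (exact permutation p = 0.3, two-sided). It was 0.24 without tbx20-overexpressing replicate 1. The ratio of wt1a to tcf21 was 0.126 to 0.266 in the tbx20-overexpressing and 0.166 to 0.258 in the control libraries, with a difference of -0.32 on the log2 scale (exact permutation p = 0.5, two-sided). That difference was -0.11 without tbx20-overexpressing replicate 1, -0.18 without control replicate 1, -0.21 without tbx20-overexpressing replicate 2, -0.50 without control replicate 2 and -0.65 without tbx20-overexpressing replicate 3. After adjustment over the 3 ratios each p was 0.6. The higher tcf21 and wt1b and the flatter wt1a were therefore not shown to differ from each other, and the exact permutation test of 3 against 3 libraries cannot go below p = 0.1.

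**Figure D3:**
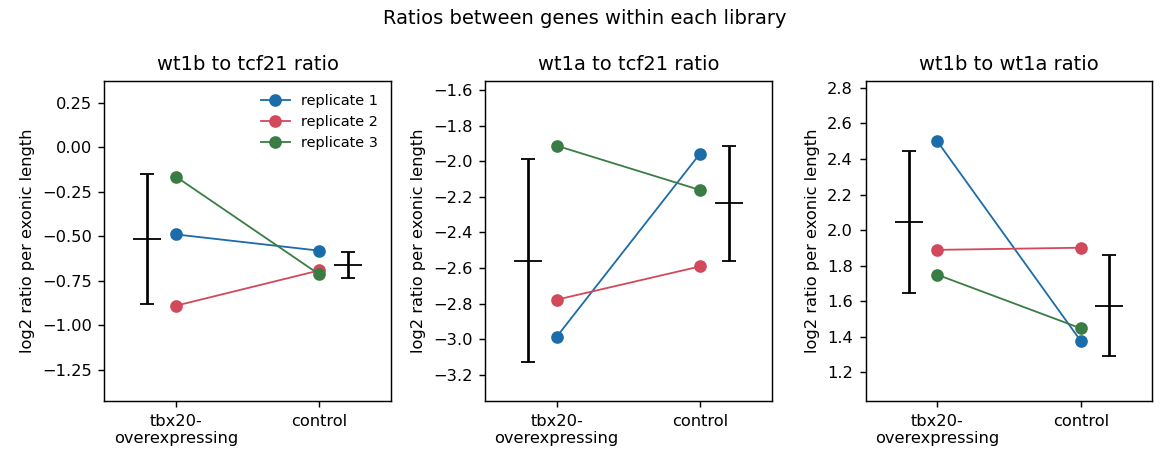
Log2 ratio, per exonic length, of wt1b to tcf21, wt1a to tcf21 and wt1b to wt1a in each library. Points are libraries, lines join libraries of the same replicate number and black bars are the mean ± SD of 3 libraries; the 2 groups overlap in each panel, and the differences between their means are 0.15, -0.32 and 0.47.

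The epicardial programme around these factors was read next from a list of 9 other epicardial genes, 8 of which were in the table and tested. None of the 8 passed both thresholds in edgeR (smallest unadjusted p = 0.0867, for gata6) or in DESeq2, while 8.83% of all genes did in edgeR. A positive log2 fold change was found for 4 of them, and for 8510 of the 15686 genes tested. The median was 0.06 beside 0.04 over all genes. Aldh1a2, the retinoic acid-synthesising enzyme that is made by injury-activated epicardium and endocardium, was at 149, 91.1 and 139 FPKM in tbx20-overexpressing replicates 1, 2 and 3, against 71.7, 51.6 and 94.7 FPKM in control replicates 1, 2 and 3. Its groups overlapped between tbx20-overexpressing replicate 2 and control replicate 3, and its log2 fold change was 0.48 ± 0.26 (SE; edgeR, adjusted p = 0.663). Tbx18, a T-box factor of the epicardium, was at 23.9, 19.8 and 31.7 FPKM in tbx20-overexpressing replicates, against 18.9, 8.81 and 19.5 FPKM in control replicates. In FPKM each tbx20-overexpressing library was above the 3 control libraries, as for 19.7% of all genes tested. Scaled by TMM factors, tbx20-overexpressing replicate 2 fell below control replicates 1 and 3. On that scale the log2 fold change was only 0.36 ± 0.25 (SE; edgeR, adjusted p = 0.761).

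The zinc finger gene bnc2 had a log2 fold change of 0.56 ± 0.39 (SE; edgeR, adjusted p = 0.761). It was the 1 gene of the list to pass the thresholds with the replicate block, at 0.62, where 14.1% of all genes passed. Podxl, a surface sialomucin of epicardium and podocytes, had a log2 fold change of -0.11 ± 0.22. Cav1, the caveolar protein of epicardial and endothelial cells, was at -0.02 ± 0.27. Gata6, a zinc finger factor of epicardium and myocardium, was at -0.46 ± 0.24 (SE for each). The summed level of the list was 1297 to 1684 CPM in the tbx20-overexpressing and 1252 to 1472 CPM in the control libraries, so that the groups overlapped. Most of this sum came from podxl, aldh1a2 and cav1. In tbx20-overexpressing replicate 1 they had 7781, 7645 and 5773 counts, against 1038 for gata6, the next highest. As aldh1a2 and cav1 are not confined to the epicardium, the sum does not measure that layer alone.

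Of 13 signals and matrix genes tied to the activated epicardium, 11 were tested. The thresholds were passed by 2 of the 11 as higher in tbx20-overexpressing hearts and by none as lower. Over all genes, 3.27% passed as higher. A positive log2 fold change was found for 8 of the 11, and for 8510 of the 15686 genes tested. The median log2 fold change of the 11 was 0.17, beside 0.04 over all genes. Mdka, which encodes the heparin-binding growth factor midkine, was at 549, 689 and 655 FPKM in tbx20-overexpressing replicates 1, 2 and 3, against 255, 322 and 306 FPKM in control replicates 1, 2 and 3. All tbx20-overexpressing libraries were above all control libraries, as for 19.7% of all genes tested in FPKM. The log2 fold change was 0.73 ± 0.26 (SE; edgeR, adjusted p = 0.422). The call was lost without control replicate 1 or 3 or tbx20-overexpressing replicate 2, where the lowest log2 fold change was 0.61.

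Fn1a, a fibronectin of the matrix that the epicardium deposits in the wound, was at 188, 126 and 270 FPKM in tbx20-overexpressing replicates, against 88.5, 73.5 and 119 FPKM in control replicates. In FPKM every tbx20-overexpressing library was above every control library, as for 19.7% of all genes tested. Scaled by TMM factors, tbx20-overexpressing replicate 2 fell below control replicate 3. On that scale the log2 fold change was 0.70 ± 0.27 (SE; edgeR, adjusted p = 0.478). The call was lost without control replicate 1 or 2 or tbx20-overexpressing replicate 1 or 3, with 0.53 as the lowest value. Its paralog fn1b was at 664 to 854 FPKM in the tbx20-overexpressing and 314 to 490 FPKM in the control libraries. These ranges were separate, as for 19.7% of all genes tested in FPKM. Scaled by TMM factors, tbx20-overexpressing replicate 3 fell below control replicate 1. Fn1b had a log2 fold change of 0.56 ± 0.29 (SE; edgeR, adjusted p = 0.642) and passed the thresholds with the replicate block. The connective tissue growth factor gene ctgfa (0.39 ± 0.36) and the growth factor gene igf2b (0.47 ± 0.26) did not pass them (SE for each). Hapln1a was at 0.01 ± 0.26, and fgf17 (-0.27 ± 0.40), cxcl12b (-0.19 ± 0.30) and adma (-0.16 ± 0.17) were negative (SE for each).

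Among the partners and relatives of the factors, tcf12, an E protein with which bHLH factors dimerise, was at 17.2 to 20.4 FPKM in the tbx20-overexpressing and 13.7 to 16.5 FPKM in the control libraries. These ranges were separate, as for 19.7% of all genes tested in FPKM, but scaled by TMM factors the groups overlapped. The log2 fold change of tcf12 was -0.03 ± 0.23 (SE; edgeR, adjusted p = 0.993). Another E protein gene, tcf3b, had a log2 fold change of 0.24 ± 0.21 (SE; edgeR, adjusted p = 0.831). Of the 7 E protein and bHLH genes tested, 1 passed the thresholds, beside 8.83% of all genes. This was twist1b, a bHLH factor of mesenchymal cells, at 14.5, 28.6 and 15.6 FPKM in tbx20-overexpressing replicates 1, 2 and 3, against 8.16, 6.17 and 9.26 FPKM in control replicates 1, 2 and 3. Its groups were separate, with every tbx20-overexpressing library the higher, as for 19.7% of all genes tested in FPKM. The log2 fold change was 0.999 ± 0.315 (SE; edgeR, adjusted p = 0.370), and the call was kept without any single library (0.57 to 1.21). Its paralog twist1a was at 0.13 ± 0.27 (SE).

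None of the 3 Egr genes tested, the zinc finger relatives of wt1, passed the thresholds in edgeR (smallest unadjusted p = 0.883, for egr1). The immediate early gene egr1 varied widely, at 55.1, 152 and 41.7 FPKM in tbx20-overexpressing replicates, against 89.3, 54.1 and 45.7 FPKM in control replicates. Its log2 fold change was 0.08 ± 0.52 (SE; edgeR, adjusted p = 0.990).

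Markers of the other cell types that the apex could hold were read in the same way. Over the 15686 genes tested, 8510 had a positive log2 fold change, 513 passed the thresholds as higher and 872 as lower. With the replicate block, 949 passed as higher and 1264 as lower. None of the 6 cardiomyocyte genes had a positive log2 fold change, the median was -0.69, and 2 of them passed the thresholds as lower in tbx20-overexpressing hearts, the myosin light chain gene cmlc1 (-0.95 ± 0.36) and the cardiac actin gene actc1a (-1.02 ± 0.36; SE for each). Both calls were lost without control replicate 2 (-0.65 for cmlc1 and -0.75 for actc1a were the smallest changes of the fits that left out a library), and also without tbx20-overexpressing replicate 2, and that of cmlc1 without tbx20-overexpressing replicate 3. With the replicate block 4 of the 6 passed as lower, myl7 and tnnt2a being added. The summed level of the cardiomyocyte list was 33670, 26080 and 18110 CPM in tbx20-overexpressing replicates 1, 2 and 3, against 42520, 60290 and 33800 CPM in control replicates 1, 2 and 3. The lowest sum was that of tbx20-overexpressing replicate 3, the library in which wt1a and wt1b were highest. In that library tcf21 was the lowest of its group in CPM, at 41.0, and the highest in FPKM, at 50.3. Control replicate 2 had the highest sum and the lowest wt1a of its group (9.87 CPM). Its wt1b (38.1 CPM) and tcf21 (33.8 CPM) were the highest of the control group by less than their counting error. In FPKM they were the lowest of that group, at 14.7 for wt1b and 23.8 for tcf21. The part of muscle content in the values of tcf21 and wt1 was not tested.

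All 6 macrophage genes had positive log2 fold changes, as had 8510 of the 15686 genes tested. The median of the 6 was 0.41, beside 0.04 over all genes. The summed level of the list was 328, 316 and 570 CPM in tbx20-overexpressing replicates 1, 2 and 3, against 243, 325 and 341 CPM in control replicates 1, 2 and 3, which overlapped. The only one past the thresholds was spi1b, a myeloid transcription factor gene (0.62 ± 0.25, SE; edgeR, adjusted p = 0.491), and the call was lost without control replicate 1 or 3 or tbx20-overexpressing replicate 1 or 3, with 0.46 as the lowest value. With the replicate block csf1ra, a receptor gene of macrophages, passed as well. In CPM, replicate 3 was the highest of the tbx20-overexpressing group for both the macrophage sum and wt1b. In the control group the macrophage sum was also highest in replicate 3, while wt1b was nearly alike in the libraries, at 36.5 to 38.1 CPM. The part of macrophages in the wt1b values was not tested.

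Of the 8 fibroblast genes, 7 had positive log2 fold changes, beside 8510 of the 15686 genes tested, and their median was 0.47. None passed the thresholds in edgeR (smallest unadjusted p = 0.0652, for postnb). With the replicate block 2 of them, postnb and lum, passed as higher, beside 6.05% of all genes. The summed level was 5344 to 11000 CPM in the tbx20-overexpressing and 4636 to 8180 CPM in the control libraries, which overlapped. Fibroblasts of the zebrafish heart also express tcf21, and their part in the tcf21 values was not tested. Of the 6 mural cell genes, 1 passed as higher, beside 3.27% of all genes. This was the smooth muscle actin gene acta2 (1.64 ± 0.51, SE; edgeR, adjusted p = 0.366), whose call was lost without tbx20-overexpressing replicate 2, at 1.08. The study reported smooth muscle actin induced in heart muscle of the overexpressing fish, as a marker of cardiomyocyte dedifferentiation. Acta2 therefore does not measure mural cells alone, and the part of cardiomyocytes in its value was not tested. The other mural cell genes lay between -0.70 (rgs5a) and 0.22 (notch3), with tagln at 0.13 and myh11a at -0.04. None of them passed in edgeR without the block. With the replicate block acta2 reached an adjusted p of 0.0481 (edgeR), and the pericyte gene rgs5a passed both thresholds as lower (-0.73).

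Of the 6 endothelial and endocardial genes, 2 passed as lower, beside 872 of the 15686 genes tested. They were the junction genes cdh5 (-0.51 ± 0.20) and pecam1 (-0.50 ± 0.20, SE for each). Each held in only 2 of the 6 fits that left out a library, and was lost without control replicate 2 or tbx20-overexpressing replicate 3 among others. Kdrl was at -0.42 ± 0.18, while fli1a (-0.01 ± 0.23), tie1 (0.002 ± 0.229) and nfatc1 (0.11 ± 0.30) were flat (SE for each). Of the 6 endothelial and endocardial genes 2 had a positive log2 fold change, and their median was -0.22, beside 0.04 over all genes. No erythrocyte gene passed in edgeR (smallest unadjusted p = 0.613, for alas2), and the median of the list was 0.12. The podocyte gene nphs1, whose cells express wt1a and wt1b in the kidney, had at most 12 counts in any library and was not tested.

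**Figure D4:**
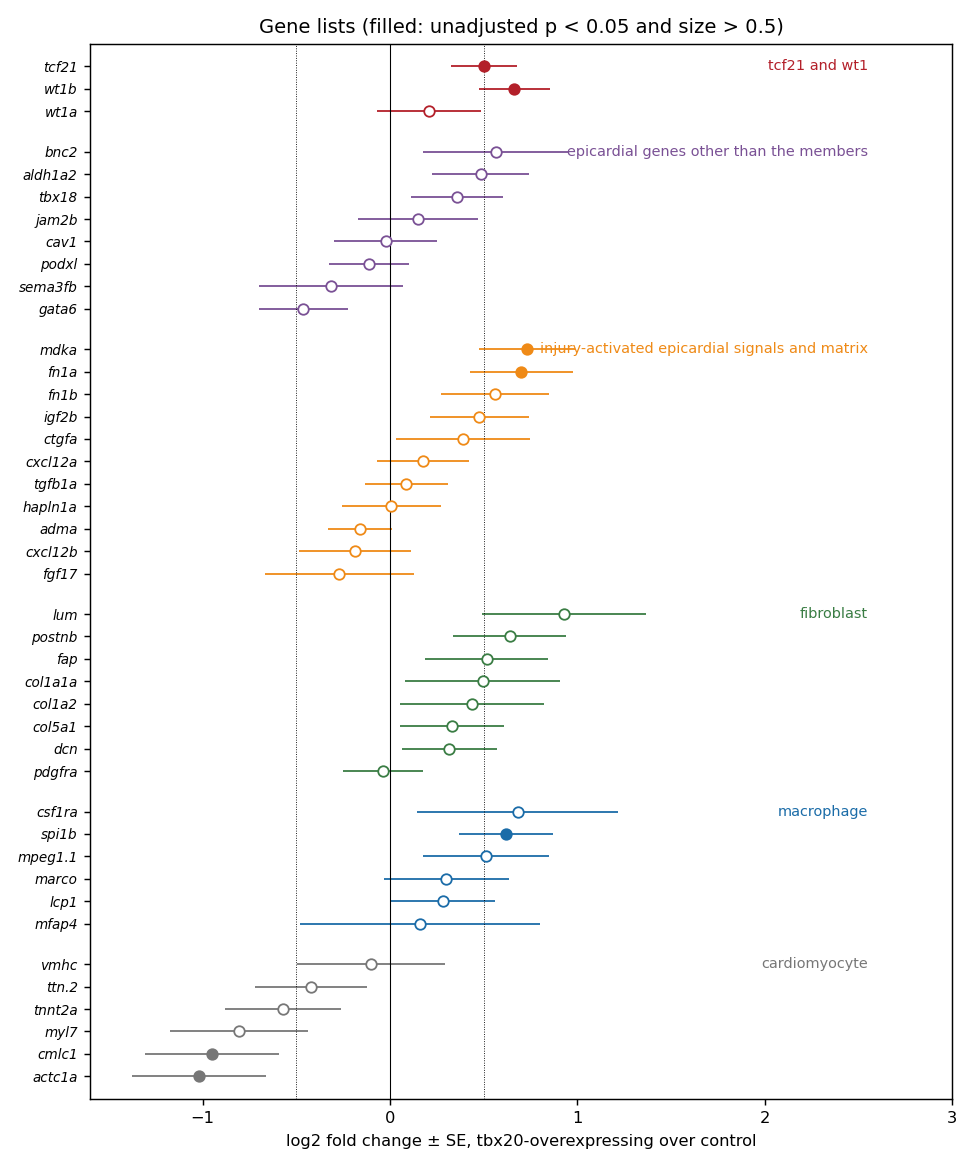
Log2 fold change (tbx20-overexpressing over control, edgeR with TMM factors) ± SE of tcf21, wt1b and wt1a and of the genes of 5 lists. Filled points passed an unadjusted p under 0.05 and a size above 0.5 (dotted lines). They were 2 of the 3 factors, 0 of 8 other epicardial genes, 2 of 11 injury-activated genes, 0 of 8 fibroblast, 1 of 6 macrophage and 2 of 6 cardiomyocyte genes, the last as lower. Over all genes tested, 8.83% passed, 3.27% as higher.

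Reads from genes that overlap a member could enter its count, since the strand and the handling of shared reads at counting are not given in the sources used here. In the GRCz12tu annotation tcf21 overlaps eya4 (log2 fold change -0.17 ± 0.36) and tbpl1 (0.19 ± 0.23; SE for each). The transcription unit of wt1b overlaps those of kifc3, eif3m, prrg4, qser1 and depdc7a, with log2 fold changes between -0.20 (eif3m) and 0.24 (kifc3). In that annotation no gene overlaps wt1a, and its neighbour dnajc24 was at -0.08 ± 0.42 (SE). None of these genes, nor slc2a12 beside tcf21 (0.19) or cstf3 beside wt1b (-0.01), passed the thresholds in edgeR, and none had an unadjusted p under 0.05. How reads shared with these genes were assigned was not tested.

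The genes whose profiles were most like those of the 3 factors were read from log2 CPM over the 6 libraries, among the 8273 genes with a mean of at least 10 CPM. With 6 points that share the 2 groups and the TMM scaling, high correlations occur easily, and they are given as a description only. Nearest to tcf21 were fam91a1 (Pearson r = 0.993), rras (0.989), ENSDARG00000022615 (0.980), mllt1b (0.979) and anxa5b (0.977). Nearest to wt1b were lmnb2 (0.992), taok3a (0.991), arcn1a (0.989), stk10 (0.987) and fam83hb (0.981). Nearest to wt1a were USP34 (0.986), si:dkey-17m8.1 (0.984), tnrc6c2 (0.981), dopey2 (0.974) and abca5 (0.966).

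No gene stood in more than 1 of these sets of 5, and no epicardial gene of the lists was in them. Among the 3 factors, r was 0.777 between tcf21 and wt1b, 0.394 between the wt1 paralogs and -0.03 between tcf21 and wt1a. With aldh1a2, 1 of the 7 other epicardial genes that were ranked, it was 0.791 for wt1b, 0.653 for tcf21 and 0.165 for wt1a. The median r with those 7 genes was lower, at 0.039 for wt1b, 0.268 for tcf21 and -0.097 for wt1a. The median r with the 6 cardiomyocyte genes was -0.486 for tcf21, -0.686 for wt1b and -0.773 for wt1a, beside medians over all ranked genes of -0.01 for tcf21, -0.08 for wt1b and -0.15 for wt1a. With the 5 macrophage genes ranked it was 0.20 for tcf21, 0.60 for wt1b and 0.50 for wt1a. With the 7 fibroblast genes ranked it was 0.41, 0.22 and 0.17 in the same order. With the 6 endothelial and endocardial genes it was -0.38, -0.50 and 0.06. The part of cell content in these values was not tested.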

How the data were processed

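Poly(A) RNA of apical ventricle pools was sequenced on an Illumina HiSeq. The submitters' processing notes name Trimmomatic 0.30, HISAT2 2.0.1, DESeq and the GRCz10 build. The counting tool and its handling of strand and of reads shared between genes are not given in the sources used here. One table was used, in which the authors deposited whole-number raw counts per gene, without normalization, and FPKM. The deposited FPKM are the counts divided by exonic length and by the library total, since all 190206 values were recomputed within rounding.

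The raw counts entered edgeR 4.0.16 (R 4.3.3) after filterByExpr and TMM scaling, and groups were compared by the two-sided quasi-likelihood F test without a block, with p adjusted by the Benjamini-Hochberg method over the 15686 genes tested. The SE is the size of the log2 fold change divided by the square root of F. Calls took an unadjusted p below 0.05 together with a log2 fold change beyond 0.5 in either direction, which is how the cut-offs in the Results of the study were read; its Methods name a Benjamini-Hochberg adjusted p, and calls by that are given as well. Ratios used counts + 0.5 per exonic length, and correlations log2(CPM + 0.5). Exact permutation tests ran over the splits of 3 against 3 libraries. Alternatives were DESeq2 1.42.0, limma 3.58.1 on log2(FPKM + 1) and log2(FPKM + 0.1), other scalings and filters, a block for the replicate number, and fits that left out 1 library. The tests were checked on simulated data in which changes were larger than those of the 3 genes and replicates were not paired. That check therefore does not show how the tests perform for differences of the size reported here.

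Libraries of the same replicate number deviated alike from their group means. These deviations correlated across genes at 0.497, 0.399 and 0.650 for same-numbered libraries, and at -0.04 or lower for others. Since each group was centred on its own mean, the values for others follow in part from the same-numbered ones. What made same-numbered libraries alike was not tested, and the fit without a block leaves it out. No 2 libraries were duplicates (chi-square per degree of freedom of at least 44.8). Values with the block stand beside a result where it changed a call or moved a count.

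The members and the gene lists were chosen with earlier results of these data known. Named were, from each list, the called genes and up to 4 more with the highest mean FPKM, the 5 genes most correlated with each factor, and annotated neighbours. Tbx18, bnc2, lum, csf1ra, rgs5a, hapln1a, fgf17, cxcl12b and adma were chosen after their values were seen, whether or not this rule would name them. Of 75 listed symbols 71 were found. Overlaps and neighbours were read from RefSeq GRCz12tu, by name only, as the files use GRCz10; sequences and coordinates are not given here.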

Additional observations from a re-analysis of the deposited data

How the results depend on the processing

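Over the 16 alternatives, wt1b kept its direction and its call, and no member other than tcf21 gained or lost a call. The log2 fold change of tcf21 was 0.49 with RLE size factors, 0.49 with DESeq2 and 0.499 with the replicate block, under 0.5 in each, and 0.45 to 0.57 with a library left out; the 3 genes called were 1 in each of these, or 1 to 2 with a library left out, in place of 2. The replicate block changed no other call among the 3 genes. Without tbx20-overexpressing replicate 3 that of wt1a was -0.0849 (range -0.0849 to 0.36 over libraries left out), and the difference in the log2 ratio of wt1b to tcf21 was -0.0274 (range -0.0274 to 0.33). All genes called were 1385, against 2100 with total-count scaling, 2213 with the replicate block and 3999 with both, the last chosen after seeing the data. Of the 8 other epicardial genes, 0 were called, against 1 with total-count scaling, 1 with limma on log2(FPKM + 1), 1 on log2(FPKM + 0.1), 1 with the replicate block, 3 with total-count scaling and the block, and 0 to 1 with a library left out. The cause of these shifts was not tested. With 3 pools a group, an exact permutation p cannot go below 0.1, or 0.25 over the 3 pairs. The spread of wt1a between pools was larger than its counting error.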
